A study of Rattus norvegicus with 3 samples.

Results

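The purinergic system of these rat osteoblast-like cells comprised 43 genes of the 26140 genes on the array, taken by name. It held the P2X and P2Y nucleotide receptors, the adenosine receptors, the receptor for advanced glycation end products (RAGE, gene Ager) and the pannexins. It also held the Entpd, Enpp (without Enpp1) and Nt5e genes, called the ectonucleotidase families here, the equilibrative nucleoside transporters and adenosine deaminase. The 43 genes were covered by 50 probes of 60 bases with 148 spots per array. All 46 of the probes whose accession stood in the RefSeq gene table carried the same symbol there. A further 2 probes, named RGD1560455 in the files and P2ry10b in RefSeq, fell outside the naming rule and were not counted.

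ROS17/2.8 is a clonal rat osteosarcoma line labelled as osteoblast. Confluent cells in mineralization medium, which contained ascorbate phosphate and β-glycerophosphate in every group, were given polyphosphate for 24 h, either 1 mg/ml (the high dose) or 0.01 mg/ml, called the low dose here, and the control had none and no time in the labels. Total RNA of each group was hybridised to 1 single-colour Agilent array, all on 1 slide. With 1 array per group no difference has a replicate check, no p-value can be given, and the slide position cannot be told apart from the dose.

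Cells release ATP and other nucleotides, which open P2X ion channels and activate P2Y receptors coupled to G proteins. Ectonucleotidases then shorten the nucleotides to AMP and to adenosine, which acts on its own receptors before nucleoside transporters carry it into cells and adenosine deaminase converts it to inosine. In bone this system is known to act on mineral deposition, partly because hydrolysis of ATP releases pyrophosphate, an inhibitor of mineralization. Polyphosphate has been described as acting through P2Y1 in astrocytes and through P2Y1 and RAGE in human endothelial cells.

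Some of the sequences that read these genes are printed to show the bases behind the values and how alike related receptor probes can be. They are the designed probes in the deposited files, 5′ to 3′, with rn4 coordinates of the array design.
Slc29a3 probe (chr20:28042410-28042469, minus strand): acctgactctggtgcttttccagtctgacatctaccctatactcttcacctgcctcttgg
Slc29a4 probe 2 (chr12:12242306-12242365, minus strand): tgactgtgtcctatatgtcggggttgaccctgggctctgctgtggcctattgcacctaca
P2rx4 probe (chr12:34945104-34945163, minus strand): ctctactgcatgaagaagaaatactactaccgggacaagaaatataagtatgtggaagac
P2rx1 probe (chr10:59903637-59903696, plus strand): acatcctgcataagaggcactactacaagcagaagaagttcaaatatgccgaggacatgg
Ager probe (chr20:4251214-4251588, minus strand): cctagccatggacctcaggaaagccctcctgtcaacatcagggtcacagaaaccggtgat
The P2rx4 and P2rx1 probes were the most alike of 1217 pairs of probes for different genes, with 37 matching bases over 56 aligned without gaps (66.1% identity). The next pair, Enpp2 and Panx3, matched at 28 of 58 bases. The 60 bases of the Ager probe spread over 375 bases of the genome, and those of the Enpp2 probe over 5394, so both probes cross at least 1 gap in the genome. The probe of P2rx5 spread over 713 bases and one of Entpd2 over 79.

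Signals are given as scaled signals, the processed intensity multiplied so that the 75th percentile of each array equals that of the control array (926.3 before scaling on the control, 964.1 on the low dose and 936.6 on the high dose array). A probe counted as measured where at least 50% of its spots carried the scanner's flag for well above background. Signals of different probes are not compared, since each probe has its own brightness. Of 10 osteoblast markers 8 were measured on every array (Alpl, Bglap, Col1a1, Col1a2, Ibsp, Runx2, Sp7 and Spp1, but neither Dmp1 nor Phex), and the sum of the list ranged from 108658 to 115320 between arrays. Of 9 monocyte, macrophage and osteoclast markers 5 were measured on all arrays (Acp5, Cd14, Cd68, Csf1r and Itgam), and Ptprc and Adgre1 on none. By array, 7 were measured in the control and 5 on each treated array, and the sum of the list ranged from 605.3 to 655.1. Of 5 endothelial markers 3 were measured on all arrays (Cdh5, Pecam1 and Vwf), and Kdr and Tek on none. Fabp4 was the 1 of 5 adipocyte markers measured on all arrays, and Itga2b the 1 of 4 platelet and lymphoid markers with probes.

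Of the 43 genes, 20 were measured on all arrays, 4 on some and 19 on none. By array, 22 were measured at the high dose, 23 at the low dose and 22 in the control, 51.2%, 53.5% and 51.2% of the set, against 56.4%, 57.0% and 57.6% of all genes. The 19 genes measured on no array had 21 probes with 81 spots per array, and no spot of theirs was flagged well above background on any array. Their scaled spots read 3.91 to 26.1. The lowest spot flagged well above background had a processed signal of 19.7 on the control array, 21.04 on the low dose and 22.4 on the high dose array, and the highest spot without the flag 26.5, 28.3 and 31.3. Transcripts under the first of these limits were not detectable, and between the limits a spot could fall on either side.

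**Figure D1:**
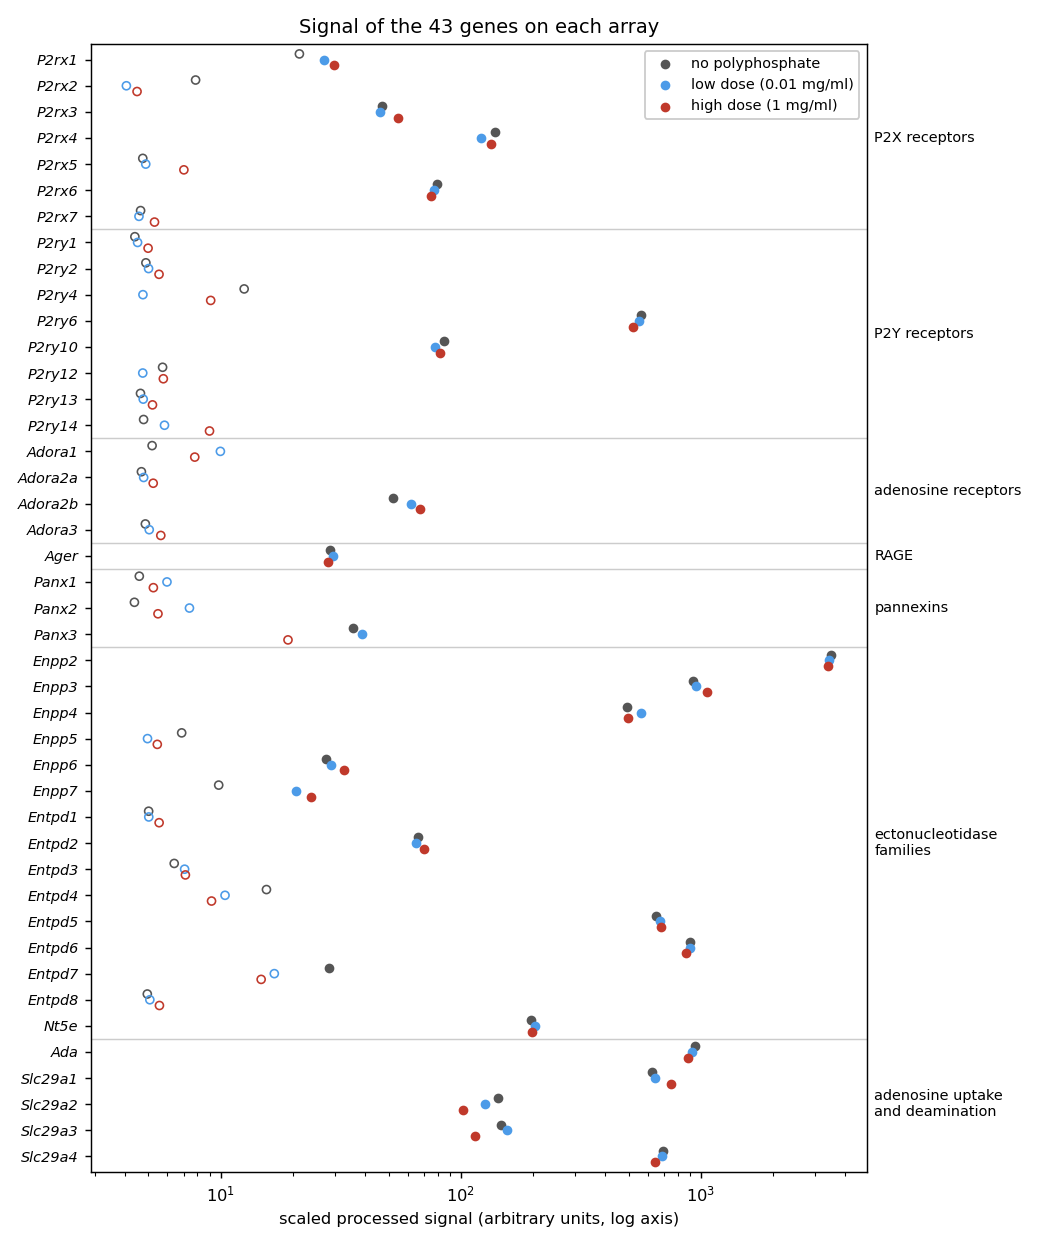
Scaled processed signal (arbitrary units, log axis) of the brightest probe of each of the 43 genes on the control, low dose and high dose arrays, grouped by role. Filled points were well above background and open points were not, and position on the axis is comparable between arrays of 1 gene, not between genes. The 19 genes with open points only include P2ry1, while Slc29a2 and Slc29a3 sit visibly lower on the high dose array.

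Most nucleotide receptors were below detection. Among 7 P2X receptors, P2rx3, P2rx4 and P2rx6 were measured on all arrays and P2rx1 on both treated arrays, while P2rx2, P2rx5 and P2rx7 were measured on none. P2rx4, an ATP-gated cation channel found on plasma membrane and lysosomes, had spots of 132 and 145 in the control, 134 and 110 at the low dose, then 137 and 131 at the high dose. These spots overlapped between all arrays, with log2 ratios of -0.05 ± 0.14 for high versus control and -0.19 ± 0.14 for low versus control. The value after ± is a spot error, the standard error expected from the scatter between repeat spots on 1 array, and it leaves out every difference between cultures.

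P2rx3, known from sensory neurons, had spots of 45.3 and 48.2 in the control, 47.8 and 44.8 at the low dose, then 57.3 and 52.4 at the high dose. Its high dose spots lay above all others, yet the log2 ratio of 0.23 ± 0.24 for high versus control was within the spot error. P2rx6, a P2X subunit that forms channels poorly by itself, had overlapping spots of 78.0 and 81.6 in the control, 71.2 and 82.9 at the low dose, then 70.9 and 80.1 at the high dose. Its log2 ratios were -0.08 ± 0.18 for high versus control and -0.05 ± 0.18 for low versus control. P2rx1, the ATP receptor of smooth muscle and platelets, had one probe measured on the treated arrays, which had spots of 29.8 and 24.3 at the low dose, then 33.6 and 25.5 at the high dose. The same probe read 23.8 and 18.7 in the control, neither well above background. Taken to that unmeasured level, the ratios were 1.39 (high) and 1.27 (low), which are not bounds. Spots without the flag reached a processed signal of 26.5 on the control array. Nominal bounds, given below for other genes, divide the bright signal by a floor. The floor is the dim signal, or the lowest spot well above background on the dim array where that is larger. For P2rx1 the dim signal was the larger, so no bound is given. Another P2rx1 probe, measured on no array, read in the opposite order, with spots of 8.31 and 9.70 in the control and its lowest high dose spot at 4.99. P2rx7, the receptor behind inflammasome activation in macrophages, had 10 spots per array. Of these 9 read 3.97 to 7.36 over the arrays, and the remaining spot, an outlier on every array and well above background on none, read 19.4 in the control, 24.4 at the low dose, then 26.1 at the high dose.

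Among 8 P2Y receptors, P2ry6 and P2ry10 were measured on all arrays, and P2ry1, P2ry2, P2ry4, P2ry12, P2ry13 and P2ry14 on none. P2ry1, the ADP receptor, had spots of 4.01 and 4.76 in the control, 4.12 and 4.89 at the low dose, then 4.59 and 5.37 at the high dose, all at the level of dark spots. P2ry6, the UDP receptor, was the P2Y gene with the most precise values, resting on 10 spots per array. Its spots ran from 536 over a median of 563 to 607 in the control, from 501 over 553 to 588 at the low dose and from 500 over 523 to 549 at the high dose. The ranges overlapped, and the log2 ratio was -0.10 ± 0.03 for high versus control, -0.03 ± 0.03 for low versus control and -0.08 ± 0.03 for high versus low. The first of these was 0.05 when the arrays were centred on spike-in probes. P2ry10, a receptor for lysophosphatidylserine in mouse and human lymphocytes, had spots of 85.9 and 84.3 in the control, 81.3 and 75 at the low dose, then 74.3 and 89.7 at the high dose. The high dose spots lay on both sides of the others, with log2 ratios of -0.06 ± 0.15 for high versus control and -0.12 ± 0.18 for low versus control.

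RAGE was measured close to the limit. Ager had spots of 27.5 and 29.4 in the control, 26.8 and 32.1 at the low dose, then 28.2 and 27.6 at the high dose. As processed signals, both high dose spots and one low dose spot lay under the highest spot without the flag on their array, though all were flagged well above background. The spots overlapped between all arrays, with log2 ratios of -0.03 ± 0.26 and 0.04 ± 0.26 for the high and the low dose against control. Of 9 listed RAGE ligands and partners, 6 were measured at the high dose, with a median log2 ratio of 0.05. The S100 protein genes S100a4 and S100a6 stood at 0.05 ± 0.05 and 0.12 ± 0.05, Hmgb1, encoding a nuclear protein that binds RAGE when released, at 0.20 ± 0.04 and S100b at -0.24 ± 0.13. The Hmgb1 value is a mean over 4 probes that differed. Its brightest probe read 2713 in the control, 3975 at the low dose, then 3338 at the high dose, while the mean for low versus control was 0.15 ± 0.04. The spot error leaves out such differences between probes. Diaph1, for a formin that binds the RAGE tail, was the 1 gene of this list past 1.3-fold, at -0.41 ± 0.22, and was named after its value was seen.

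Of the adenosine receptors only Adora2b was measured, and Adora1, Adora2a and Adora3 were not measured on any array. Adora2b, the low-affinity receptor that raises cyclic AMP, rested on 1 spot per array, which read 52.1 in the control, 61.8 at the low dose, then 67.6 at the high dose. The spot was brighter on both treated arrays, and the log2 ratio was 0.38 ± 0.31 for high versus control and 0.25 ± 0.31 for low versus control. The high dose value lay just under 1.3-fold, and ranged from 0.11 with another background correction to 0.53 with centring on spike-ins. Without a repeat spot its own scatter could not be seen.

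Of the pannexins, which form ATP release channels, only Panx3 was measured. Panx3, known from osteoblasts and chondrocytes, had spots of 40.05 and 31.0 in the control, 31.2 and 46.5 at the low dose, then 15.5 and 22.7 at the high dose. Both high dose spots lay under all others and neither was well above background, which gave nominal bounds for the high dose of at least 1.59-fold lower than the control and at least 1.72-fold lower than the low dose. Spots without the flag reached a processed signal of 31.3 on the high dose array, so these bounds are not firm. Taken to the unmeasured high dose level itself, the ratios were 1.88 and 2.04. The low dose and the control did not separate (log2 ratio 0.11 ± 0.26). The 5 chondrocyte markers had summed signals of 425.4 in the control, 576.1 at the low dose, then 427.7 at the high dose. Of these, Sox9 and Hapln1 were measured on all arrays, and Acan, Col2a1 and Col10a1 on none. The part of the chondrocyte markers in the Panx3 values was not tested. Panx1 and Panx2 were measured on no array. In cells harvested as a whole, fewer cells with a transcript and less of it per cell cannot be told apart.

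The ectonucleotidase families were the largest group, with 8 of 15 genes measured on all arrays, 2 on some and 5 (Entpd1, Entpd3, Entpd4, Entpd8 and Enpp5) on none. Entpd1 encodes CD39, which converts ATP to AMP on leukocytes and endothelium. Enpp3, an ectoenzyme that cleaves nucleoside triphosphates, rested on 10 spots per array, from 873 over a median of 933 to 976 in the control, from 894 over 948 to 1006 at the low dose and from 969 over 1069 to 1142 at the high dose. The lowest high dose spots overlapped the highest of both other arrays. The log2 ratio was 0.19 ± 0.03 for high versus control, a fold of 1.14, and 0.16 ± 0.03 for high versus low, while low versus control gave 0.03 ± 0.03. It lay between 0.18 and 0.34 under every setting tried.

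Nt5e, which encodes CD73 and makes adenosine from AMP, had spots of 193 and 199 in the control, 213 and 195 at the low dose, then 192 and 206 at the high dose. These overlapped throughout, with log2 ratios of 0.02 ± 0.11 and 0.06 ± 0.11. Enpp2, encoding the lysophosphatidic acid producing enzyme autotaxin, had spots of 3428 and 3569 in the control, 3278 and 3544 at the low dose, then 3431 and 3356 at the high dose. They overlapped, with a log2 ratio to the control of -0.04 ± 0.06 for either dose. Entpd5 and Entpd6 encode nucleoside diphosphatases of the secretory pathway. Entpd5 had spots of 644 and 659 in the control, 637 and 717 at the low dose, then 651 and 711 at the high dose, a log2 ratio of 0.06 ± 0.07 for high versus control. Entpd6 had spots of 899.8 and 905 in the control, 854 and 945 at the low dose, then 847 and 885 at the high dose, a log2 ratio of -0.06 ± 0.07.

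The ecto-ATPase gene Entpd2 was read by 2 measured probes with 1 spot each, and a further probe was not well above background. One read 66.3 in the control, 65.3 at the low dose, then 70.4 at the high dose, and the other 54.6, 49.0 and 49.8 in that order. They went opposite ways at the high dose, with log2 ratios of 0.09 and -0.13 and a mean of -0.02 ± 0.22.

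Enpp4, whose product cleaves diadenosine triphosphate in human endothelium, had probes that differed. One rested on 1 spot per array, which read 494 in the control, 564 at the low dose, then 498 at the high dose, a log2 ratio of 0.01 for high versus control. The other had spots of 61.4 and 68.2 in the control, 61.3 and 66.6 at the low dose, then 51.2 and 57.8 at the high dose, a log2 ratio of -0.25 for high versus control with no overlap. Their mean was -0.12 ± 0.12. Enpp6, a choline phosphodiesterase gene near background, had spots of 25.5 and 29.2 in the control, 40.1 and 17.8 at the low dose, then 36.8 and 28.5 at the high dose. The low dose spots lay on both sides of all others, and the log2 ratio of 0.25 ± 0.26 for high versus control was within the spot error.

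A pair of ectonucleotidase-family genes were measured on some arrays only. Entpd7, a nucleotidase of intracellular membranes, had spots of 31.0 and 25.5 in the control, 20.4 and 13.0 at the low dose, then 18.3 and 11.2 at the high dose. Only the control spots were well above background and they lay above all others. The nominal bounds were at least 1.27-fold lower for the high dose and at least 1.39-fold lower for the low dose. Spots without the flag reached processed signals of 31.3 (high dose) and 28.3 (low dose), so these bounds are not firm. Taken to the unmeasured levels of the treated arrays, the ratios were 1.97 and 1.72. Enpp7, known as the intestinal alkaline sphingomyelinase, had spots that disagreed on each array, 14.4 and 5.25 in the control, 35.8 and 5.44 at the low dose, then 38.7 and 9.03 at the high dose. Only the brighter spot of each treated array was well above background, and the averaged levels lay under the lowest such spot of the control array, so no bound on a fold to the control is given. The log2 ratio of 0.42 ± 0.26 for high versus low dropped out once every spot had to be above background.

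The equilibrative nucleoside transporters, which carry adenosine and other nucleosides across membranes, included the only 1 of the 20 genes measured on all arrays that was 1.3-fold apart between the high dose and untreated cells. Slc29a2, for the plasma membrane transporter ENT2, had spots of 145 and 141 in the control, 140 and 112 at the low dose, then 104 and 99.6 at the high dose. The high dose spots lay under all others, and those of the low dose under those of the control. The log2 ratio was -0.49 ± 0.15 for high versus control, 1.40-fold lower, -0.19 ± 0.14 for low versus control and -0.30 ± 0.15 for high versus low. Of the 14503 genes measured on both arrays, 213 had a lower ratio at the high dose. The first ratio stayed below 0 under every setting tried but was no longer 1.3-fold with centring on spike-ins (-0.33) or normexp background correction (-0.31).

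Slc29a3, for the lysosomal transporter ENT3, was lower at the high dose alone. Its spots read 153 and 141 in the control, 151 and 159 at the low dose, then 114 and 116 at the high dose, without overlap of the high dose with either other array. The log2 ratio was -0.35 ± 0.13 for high versus control, -0.43 ± 0.13 for high versus low and 0.08 ± 0.12 for low versus control. With either of the same alternatives the first was -0.20. Slc29a1, for the main plasma membrane transporter ENT1, went the other way, with spots of 660 and 593 in the control, 670 and 614 at the low dose, then 753 and 747 at the high dose. Its log2 ratios were 0.26 ± 0.07 for high versus control, 0.23 ± 0.07 for high versus low and 0.04 ± 0.07 for low versus control.

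Slc29a4, for a transporter of monoamines and adenosine, had a pair of probes with 1 spot each. They read 694 and 70.5 in the control, 689 and 72.3 at the low dose, then 646 and 68.7 at the high dose. Both were slightly lower at the high dose, and the mean log2 ratio of -0.07 ± 0.15 was within the spot error. Ada, encoding adenosine deaminase, had spots of 942 and 949 in the control, 949 and 892 at the low dose, then 895 and 872 at the high dose. The high dose spots lay just under those of the control, at a log2 ratio of -0.10 ± 0.07. Under spike-in centring this ratio was 0.06.

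**Figure D2:**
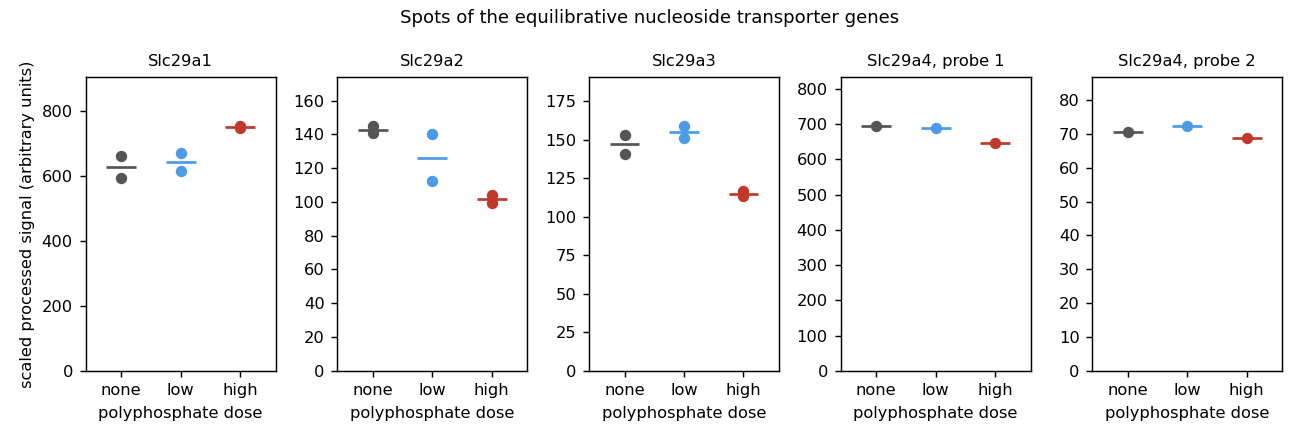
Scaled processed signal (arbitrary units, linear axis from 0) of each spot of the Slc29a probes on the control array (none), the low dose and the high dose array, with horizontal lines at the mean. Slc29a1 is higher at the high dose (747 and 753 against 593 and 660 in the control), Slc29a2 and Slc29a3 are lower, and both Slc29a4 probes change little.

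Sequence upstream is shown for the 3 transporter genes past 2 spot errors for high versus control, picked after their values were seen. Any tie between the sequences and the direction of the ratios was not tested. The 250 bases before each gene start are from RefSeq (GRCr8), with matches to GGGCGG (the GC box) and ACGTG (the core bound by hypoxia-inducible and other basic helix-loop-helix factors) on either strand in capitals.
Slc29a1 (chr9:22896849-22897098, plus strand): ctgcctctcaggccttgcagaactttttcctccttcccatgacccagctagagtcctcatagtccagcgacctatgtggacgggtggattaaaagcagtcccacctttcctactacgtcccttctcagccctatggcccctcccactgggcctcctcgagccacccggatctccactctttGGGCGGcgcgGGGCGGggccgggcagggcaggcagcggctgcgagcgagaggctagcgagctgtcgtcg
Slc29a2 (chr1:211757074-211757323, plus strand): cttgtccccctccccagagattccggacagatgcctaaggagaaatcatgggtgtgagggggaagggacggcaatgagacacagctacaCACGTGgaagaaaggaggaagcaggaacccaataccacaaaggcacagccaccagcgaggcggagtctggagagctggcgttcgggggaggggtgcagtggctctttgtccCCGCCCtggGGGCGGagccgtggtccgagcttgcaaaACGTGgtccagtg
Slc29a3 (chr20:29228300-29228549, minus strand): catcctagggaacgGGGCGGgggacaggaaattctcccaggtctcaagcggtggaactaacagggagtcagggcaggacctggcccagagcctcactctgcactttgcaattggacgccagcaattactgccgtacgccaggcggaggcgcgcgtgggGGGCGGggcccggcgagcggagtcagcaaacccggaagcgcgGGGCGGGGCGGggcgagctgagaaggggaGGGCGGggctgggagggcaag
GGGCGG occurred 2 times before Slc29a1, 2 times before Slc29a2 and 5 times before Slc29a3, where a pair of matches overlap. ACGTG occurred only before Slc29a2, 3 times, and 2 of these matches overlap as the palindrome CACGTG read on both strands. Of 33469 RefSeq promoters 30.5% held GGGCGG and 16.6% held ACGTG, against 16 and 7 of the 35 genes of the set with an entry. GGGCGG stood before 8 of 18 genes measured on all arrays and 6 of 14 measured on none. A match is a run of letters in this window and shows no binding.

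Counted by size, none of the 20 genes measured on both arrays was 2-fold higher or lower for high versus control, where 0.0621% of all genes were 2-fold higher and 0.0552% lower. Enpp7, Entpd7, Panx3 and P2rx1, each below the limit on one of these arrays, are not in these counts. At 1.3-fold (0.38 on the log2 scale), 0 of 20 measured genes were higher against 3.31% of 14503 genes, and 1 was lower, Slc29a2, against 3.43%. By more than 2 spot errors, Enpp3 and Slc29a1 were higher, 2 of 20 against 10.7% of all genes, and P2ry6, Slc29a2 and Slc29a3 were lower, 3 of 20 against 12.8%. These shares are close to those of all genes. The median log2 ratio of the 20 was -0.05 against -0.01 for all genes, with SDs over genes of 0.20 in each case.

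**Figure D3:**
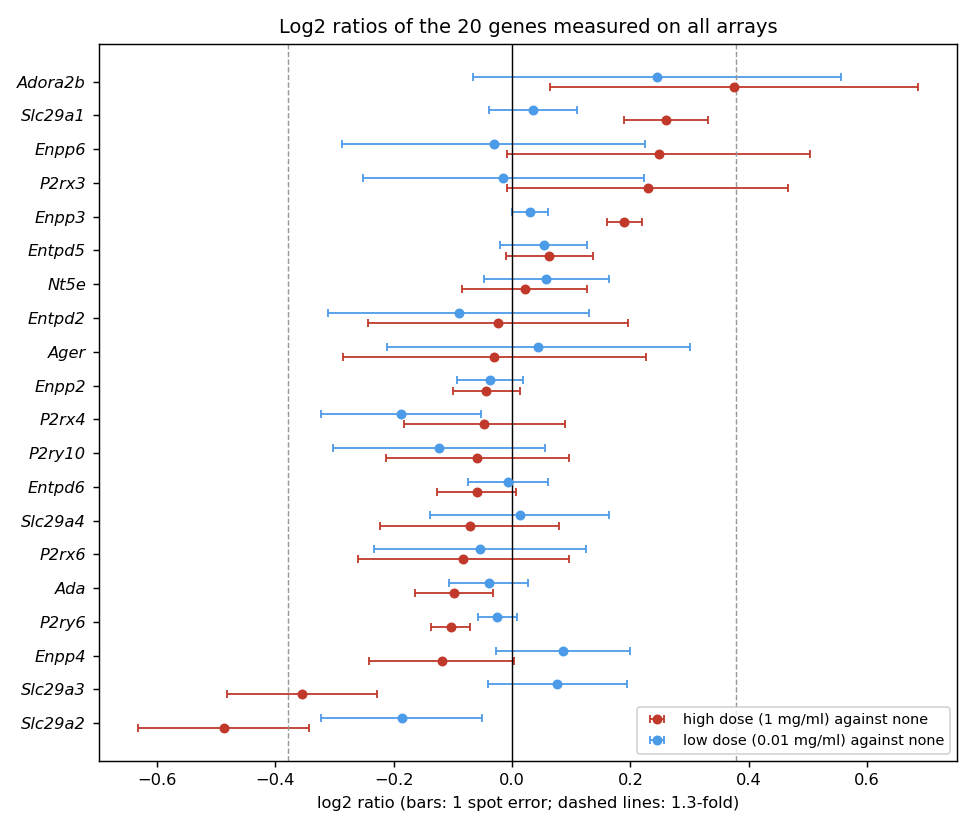
Log2 ratios (horizontal axis) of the 20 genes measured on all arrays, for the high and the low dose against the control, with bars of 1 spot error and dashed lines at 1.3-fold. Slc29a2 is past the lower line at the high dose (-0.49), Adora2b sits at the upper line with the widest bar (0.38 ± 0.31), and all low dose values lie between the lines.

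The low dose differed less from the control. None of 21 measured genes was 2-fold higher or lower, where 0.0684% and 0.0479% of 14629 genes were, none was 1.3-fold higher or lower, where 1.72% and 2.33% were, and none was apart by more than 2 spot errors, where 4.27% and 4.56% were. The SD of the log2 ratios was 0.10 over the set and 0.16 over all genes. Adora2b was highest at 0.25 ± 0.31, and P2rx4 and Slc29a2 were lowest at -0.19 ± 0.14 each.

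Between the doses no measured gene of the set was 2-fold higher or lower, against 0.0483% and 0.0276% of all genes. At 1.3-fold, 1 of 22 measured genes was 1.3-fold higher at the high dose (Enpp7, against 3.06% of 14488 genes) and 1 was lower (Slc29a3, against 2.4%). The genes past 2 spot errors were the same as for high versus control, Enpp3 and Slc29a1 higher (2 of 22, against 9.62%) and P2ry6, Slc29a2 and Slc29a3 lower (3 of 22, against 10.6%). Both comparisons use the high dose array. Of the 20 genes measured on all arrays, 4 (Adora2b, Enpp3, Entpd5 and Slc29a1) were ordered upward from the control over the low to the high dose and 6 (Ada, Enpp2, Entpd6, P2rx6, P2ry6 and Slc29a2) downward, where 19.9% and 22.4% of 14396 genes did the same. Centring on spike-ins moves every ratio to the control up by 0.15 for the high dose, so the downward values nearer to 0 than that, P2ry6 and Ada among them, change sign under it.

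**Figure D4:**
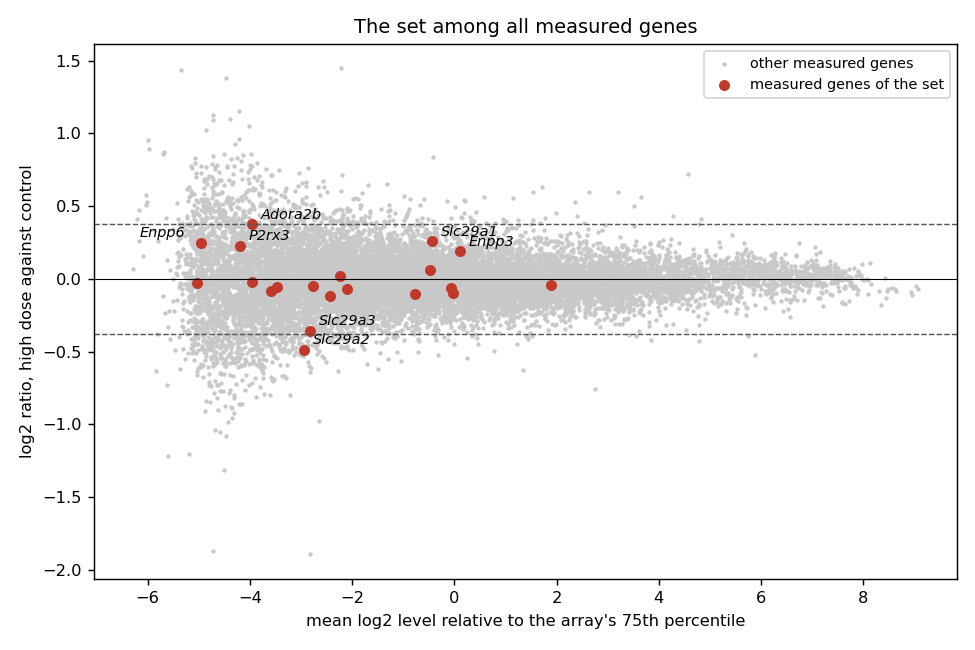
Log2 ratio of the high dose against the control (vertical axis) over the mean log2 level relative to the array's 75th percentile (horizontal axis) for all 14503 measured genes (grey) and the 20 of the set (red), with dashed lines at 1.3-fold. Over genes of all levels, 213 and 589 had a lower ratio than Slc29a2 and Slc29a3, and 1066 and 1779 a higher ratio than Slc29a1 and Enpp3.

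Some neighbouring genes of the set differed in detection and others did not. In the whole set of 43 genes, 20 were measured on all arrays, 4 on some and 19 on none. Pairs taken anywhere in the set would therefore often differ too. On rn4, probes of P2ry6 (measured on all arrays) and P2ry2 (on none) lie 58.5 kb apart on chromosome 1, those of P2rx4 and P2rx7 129.7 kb apart on chromosome 12 and those of Enpp4 and Enpp5 12.1 kb apart on chromosome 9, each with the first measured on all arrays and the second on none. P2rx1, measured on the treated arrays, lies 140.8 kb from P2rx5, measured on none, on chromosome 10. The cluster of P2ry14, P2ry13 and P2ry12 on chromosome 2 (148502701 to 148611112) was measured on no array. These were all pairs of the set with probes within 150 kb.

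Other genes of nucleotide metabolism and signalling are set beside the 3.31% of all genes that were 1.3-fold higher at the high dose and the 3.43% that were lower, at which lists of this size hold few such genes. Of 13 measured intracellular adenosine and purine enzymes, 1 was 1.3-fold higher and none lower, with a median log2 ratio of -0.01. That gene was the AMP deaminase gene Ampd3 at 0.41 ± 0.10, too dim for the naming rule and named after its value was seen because it was the only one. Adk, for adenosine kinase, which traps adenosine that has entered the cell as AMP, stood at 0.17 ± 0.07 with signals of 717, 750 and 806 in the control, the low dose and the high dose. Among 7 measured surface and secreted hydrolases outside the set, none was past 1.3-fold and the median was -0.10, with 2 above 0 and 5 below. Enpp1, which the naming rule of the set leaves out, stood at 0.18 ± 0.03. Its signals were 2037 in the control, 2059 at the low dose, then 2302 at the high dose. The calcium-activated nucleotidase gene Cant1 stood at -0.26 ± 0.06 with signals of its brightest probe of 1116, 1040 and 970 in the same order.

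Of 9 measured genes of nucleotide release and sodium-coupled uptake, none was past 1.3-fold at the high dose and the median was -0.05. Gja1, for the hemichannel protein connexin 43, stood at 0.17 ± 0.03 and the multidrug transporter gene Abcc4 at -0.05 ± 0.07. At the low dose Slc28a2 stood at 0.39 ± 0.17 and Slc28a1 at -0.56 ± 0.26, both sodium-coupled nucleoside transporter genes, dimmer than the naming rule asks and named after their values were seen because they alone passed 1.3-fold. The probes of Slc28a2 did not go one way, since its brightest read 78.3 in the control and 74.7 at the low dose. Of 16 measured genes of G proteins, adenylyl cyclases and phospholipase C, none was past 1.3-fold and the median was -0.03. Gna11, a G protein that couples P2Y receptors to phospholipase C, was the lowest of the named genes at -0.37 ± 0.11, with signals of 196 in the control, 184 at the low dose, then 152 at the high dose. Orai1, for the store-operated calcium channel, stood at -0.24 ± 0.08 and Plcb3 at -0.21 ± 0.12. Plcb1 stood at 0.08 ± 0.12 for high versus control and 0.32 ± 0.13 for high versus low. Of the 16 genes, 7 lay above 0 for high versus control and 9 below.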

How the data were processed

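The authors deposited the scanner intensity of every spot on 3 single-colour arrays, 1 per group. Agilent Feature Extraction 10.7.3.1 read the spots, per the file headers (protocol GE1_107_Sep09, design 028279, build rn4), and the processed signal had been background-subtracted and detrended within each array but not normalized between arrays. The flags for well above background and outlier spots come from the same deposited files. The table that the authors deposited for the series holds a ratio, found here to equal the processed signal over 1 constant per array (823, 849 and 823 for the high dose, the low dose and the control). No column of per-sample values was left out.

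Levels are processed signals on the log2 scale, from which the 75th percentile of the 58717 non-control spots of that array was taken off. Outlier spots were dropped unless a probe had no other, repeat spots were averaged on the log2 scale, and a gene's log2 ratio is the mean over probes measured on both arrays. Accessions of 18438 of 30367 probes matched RefSeq and gave the symbols of genes outside the set. The spot error pools the SD between repeat spots, in 20 bins of level, over probes with all spots well above background. It covers the measurement on an array only. The number of arrays limits the precision. Every member of the set is accounted for by name. Of the other lists, up to 4 genes per list furthest from 0 with a signal of at least 100 qualified for naming, and not all of these are printed. The members and lists were chosen with earlier results of these data known. The calculation was tested on simulated data. Alternatives were other scalings, normexp background correction (offset 50, limma 3.58.1), the authors' table, kept outlier spots and other filters on dim probes. Python 3.11.15, numpy 2.4.6 and pandas 2.3.3 were used.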

Additional observations from a re-analysis of the deposited data

How the results depend on the processing

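Over the 8 alternatives, 471 recomputed log2 ratios of single genes moved by less than the spot error and 30 by more. Many of the 471 could hardly move. Scaling on probes measured on all arrays and the authors' table shift all ratios of a comparison by 1 small constant. Keeping outlier spots or changing the filter on dim probes left most values unchanged. The only ratios past 1.3-fold were those of Slc29a2 (high versus control), Slc29a3 and Enpp7 (both high versus low). None of these changed sign where it was measured. Centring on 8 spike-in probes, which stood at -0.15 (high dose) and -0.16 (low dose) relative to the control, accounted for 26 of the 30. It moved the median of the set to 0.11 (high dose) and 0.15 (low dose), put 4 genes (Adora2b, Slc29a1, Enpp6 and P2rx3) in place of 0 past 1.3-fold higher at the high dose, with 1 (Adora2b) in place of 0 at the low dose, and left 0 in place of 1 lower at the high dose, with Slc29a2 at -0.33. Scaling on probes measured on all arrays, quantile normalization and the authors' table each gave 1 gene higher at the high dose, Adora2b. Normexp gave 0 lower at the high dose, with Slc29a2 at -0.31, and 0 higher and 0 lower between the doses, with Slc29a3 at -0.23 there. Requiring every spot above background gave 0 higher between the doses because Enpp7 was no longer measured. With no filter, all 43 genes entered and 4 were higher and 5 lower at the high dose, at the low dose 3 were higher and 5 lower, and 4 were higher and 2 lower between the doses, since readings at background then count. The cause of the shift of the spike-ins was not tested. Signal over background limits Adora2b, Ager, Enpp6, Enpp7, Entpd7, P2rx1, P2rx3 and Panx3. The bounds of Entpd7 and Panx3 use the lowest spot above background as the floor, chosen after seeing the data. For P2rx1 the unmeasured control level lay above that floor, so only ratios to that level are given. The lowest averaged probe level as the floor lay under the dim levels of Entpd7 and Panx3. It therefore only returned the ratios already given, 1.97 and 1.72 for Entpd7 and 1.88 and 2.04 for Panx3. Enpp7 gave 2.02 and 1.51 with it, and no bound under the other floor. No paired analysis was possible because each group holds 1 array.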
